A study of Homo sapiens with 2 samples.

Results

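The region is the large histone gene cluster on the short arm of human chromosome 6, taken as chr6:25900000-28000000 of hg38, in promoter-capture Hi-C data from K562 cells. K562 is an established chronic myelogenous leukaemia line that carries the BCR-ABL1 fusion kinase. The treated cells received 100 nM ponatinib, an inhibitor of ABL kinases, for 24 h, and the control cells received the vehicle DMSO for the same time. There was 1 library per treatment, so no test of the treatment exists and no difference below has a replicate check. An interaction is an unordered pair of HindIII restriction fragments that the authors listed with a score, and it belongs to the region when its captured (bait) fragment lies inside it. By that rule 686 of the 91305 ponatinib interactions (0.751%) and 638 of the 84049 DMSO interactions (0.759%) were members, 970 different pairs in all. They came from 55 of the 17883 bait fragments of the series, and 36 of the 55 held an end of a histone gene.

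Replication-dependent histone genes are short, lack introns and are transcribed mainly in S phase, when new DNA must be packed into nucleosomes. Their mRNAs end in a stem-loop instead of a poly(A) tail, and the cluster's genes gather in a nuclear structure called the histone locus body, which is organised by the protein NPAT. H2A, H2B, H3 and H4 are the core histones of the nucleosome, and H1 is the linker histone that binds the DNA between nucleosomes. The same stretch of chromosome 6 holds many tRNA genes, butyrophilin genes and zinc finger genes.

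The histone baits fell into 3 islands, separated by gaps of 843 kb and 655 kb. Island A, chr6:26016454-26288615, had 22 bait fragments with 30 histone genes. It lies in the first subcluster, 26 to 26.3 Mb, which also holds a bait of HFE without a histone gene. Island B, chr6:27131323-27147745, had 3 bait fragments with 5 histone genes. Island C, chr6:27802597-27897145, had 11 bait fragments with 15 histone genes. The second subcluster, 27.1 to 27.9 Mb, holds islands B and C and also baits without a histone gene, such as those of PRSS16, ZNF391 and ZNF184. A fragment is named below by the genes with an end in it, and H4C8, the gene that stands for the region, lies at the upper edge of island A. Of the 53 histone genes listed for the window, 50 had a bait fragment, and H2BC3, H3C3 and H2BC14 had none.

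The promoters of these genes have recognisable elements, which are shown for genes on fragments that contact each other between islands. Each line holds the 150 bases before the start, 5′ to 3′ on the gene's own strand, from the RefSeq promoter table of GRCh38.p14. For the H4 genes the capitals mark GTCCG, the core of the element bound by the H4 factor HINFP, and the core promoter element TATAAA.

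H4C8 (chr6:26285535-26285684, - strand): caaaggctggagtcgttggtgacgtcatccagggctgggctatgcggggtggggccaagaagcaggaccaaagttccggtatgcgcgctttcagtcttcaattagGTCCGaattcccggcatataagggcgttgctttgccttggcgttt
H4C5 (chr6:26204460-26204609, + strand): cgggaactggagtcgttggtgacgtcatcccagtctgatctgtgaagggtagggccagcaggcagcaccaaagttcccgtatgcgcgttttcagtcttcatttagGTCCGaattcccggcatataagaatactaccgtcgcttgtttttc
H4C9 (chr6:27139132-27139281, + strand): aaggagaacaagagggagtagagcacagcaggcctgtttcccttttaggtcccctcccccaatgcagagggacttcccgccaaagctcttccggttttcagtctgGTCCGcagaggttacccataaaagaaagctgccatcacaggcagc
H4C12 (chr6:27831561-27831710, - strand): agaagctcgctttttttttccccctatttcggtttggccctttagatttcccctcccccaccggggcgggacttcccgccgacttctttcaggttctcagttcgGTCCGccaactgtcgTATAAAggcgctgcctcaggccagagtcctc

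GTCCG stood 43 to 46 bases before the start in 9 of the 10 H4 promoters in the table, all but that of H4C7. On either strand it was found in the 250 bases before the start in 90% of H4 promoters (9 of 10), 0 of 14 H2B promoters and 24.0% of all 27305 promoters. H4C5 lies in island A like H4C8, H4C9 in island B and H4C12 in island C. For the H2B genes the capitals mark ATTTGCAT or its reverse complement, the octamer bound by the POU factor OCT1, and TATAAA.

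H2BC7 (chr6:26199366-26199515, + strand): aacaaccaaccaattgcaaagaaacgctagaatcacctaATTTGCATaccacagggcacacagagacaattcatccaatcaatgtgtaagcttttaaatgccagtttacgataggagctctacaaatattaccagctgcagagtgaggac
H2BC12 (chr6:27146859-27147008, - strand): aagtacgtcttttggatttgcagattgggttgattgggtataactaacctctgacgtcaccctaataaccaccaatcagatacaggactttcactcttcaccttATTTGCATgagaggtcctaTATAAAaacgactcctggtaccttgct
H2BC17 (chr6:27893275-27893424, + strand): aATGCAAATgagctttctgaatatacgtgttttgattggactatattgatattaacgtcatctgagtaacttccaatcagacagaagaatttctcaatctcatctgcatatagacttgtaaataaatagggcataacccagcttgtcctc

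The octamer was present in 11 of the 14 H2B promoters (78.6%) and 8 of the 10 H2A promoters (80%), against 1.66% of all promoters and 0 of 10 H4 promoters. CCAAT was present in every H1, H2A, H2B and H3 promoter of the table, in 3 of the 10 H4 promoters and in 33.0% of all promoters. Motifs were searched on both strands and can overlap other elements, and a match describes letters only. Many H2A and H2B genes are arranged head to head: 8 such pairs had starts 194 to 248 bases apart, so their promoters read the same DNA from opposite sides. The stretch shown for H2BC7 crosses a fragment boundary, with 88 of its bases in the neighbouring fragment that holds H2AC7 and H3C4. That pair of neighbouring baits therefore divides a single H2A and H2B promoter.

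Histone baits were listed with histone baits of other islands at a far higher share of the possible pairs than other baits at the same distance. Every pair of bait fragments on a chromosome was taken as possible, and the share of possible pairs that was listed was compared at matched distance. At 500 to 1000 kb, 37 of 75 possible histone to histone pairs were in the ponatinib list (49.3%, 95% interval 37.6 to 61.1%) and 33 in the DMSO list (44%, 32.5 to 55.9%). Outside the window 2.47% of bait pairs at that distance were listed in ponatinib and 2.16% in DMSO, so the histone share was 19.9 times and 20.3 times as high. The difference was 46.9 percentage points in ponatinib (Newcombe interval 35.9 to 57.9) and 41.8 in DMSO (31.2 to 53.1). All such intervals are exact binomial unless named otherwise, cover counting error only, and treat pairs as independent although pairs share fragments.

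The other baits of the window did not show this level. Pairs of a histone bait with another bait at 500 to 1000 kb were listed in 11 of 128 cases in ponatinib (8.59%) and 6 of 128 in DMSO (4.69%). Pairs of 2 other baits were listed in 3 of 59 cases in ponatinib and 1 of 59 in DMSO. The histone share exceeded that of histone to other pairs by 40.7 percentage points in ponatinib (28.1 to 52.4) and by 39.3 in DMSO (27.5 to 50.8).

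The share of histone pairs did not fall steadily with distance. At 200 to 500 kb, where the only possible pairs lie inside island A, 4 of 32 possible histone pairs were listed in ponatinib (12.5%) and 2 of 32 in DMSO (6.25%), beside 10.4% and 9.53% of bait pairs outside the window. Below 50 kb the shares were 40.5% in ponatinib and 41.4% in DMSO, against 18.1% and 18.2% outside the window. At 1000 to 2000 kb, 20 of 266 histone pairs were listed in ponatinib (7.52%) and 19 in DMSO (7.14%), against 0.312% and 0.288% outside the window. Of 292 histone to other pairs at that distance, 0 were listed in ponatinib, which allows a share of up to 1.03% when 3 counts are taken as the limit of a count of 0 (1.26% by the exact interval), and 1 in DMSO. In both lists the share was thus above 40% below 100 kb and again at 500 to 1000 kb, and under 13% at 200 to 500 kb and at 1000 to 2000 kb.

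**Figure D1:**
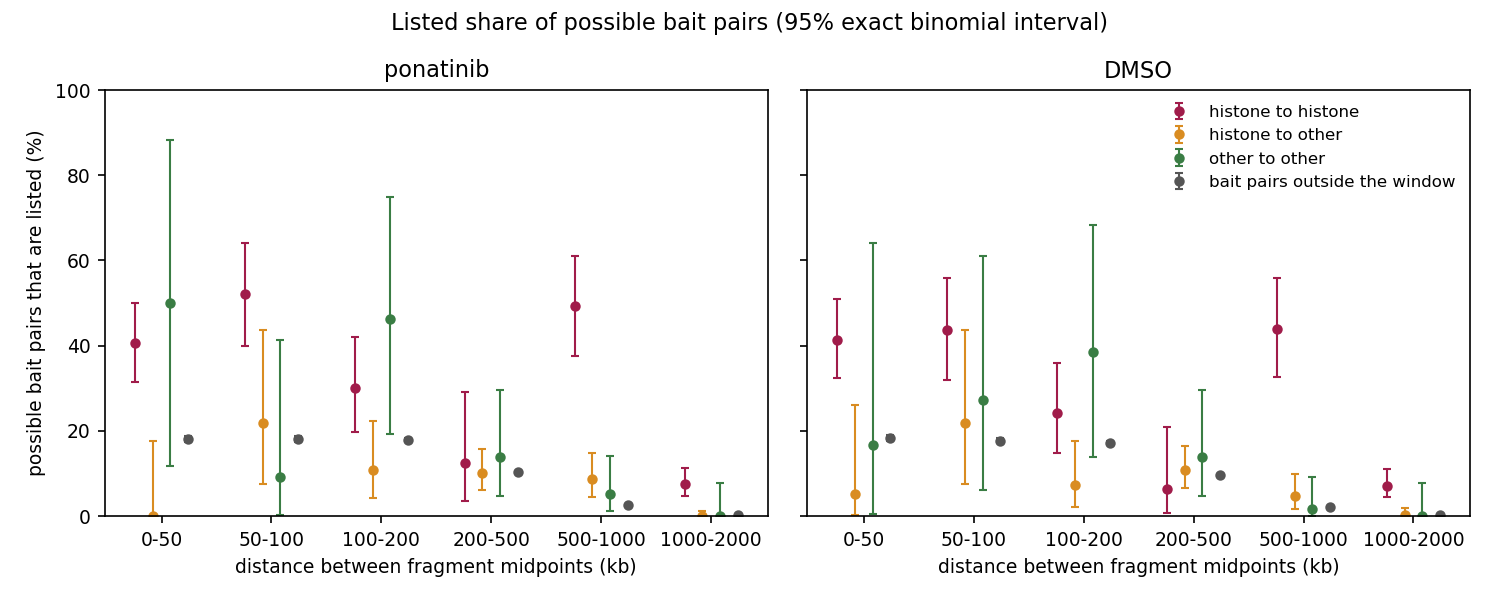
Share of possible bait pairs that were listed (vertical axis, percent) by distance between fragment midpoints (horizontal axis, kb) in ponatinib (left) and DMSO (right); points are shares and bars are 95% exact binomial intervals. Histone to histone pairs stand at 49.3% in ponatinib and 44% in DMSO at 500 to 1000 kb, where every other kind of pair lies below 10%.

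By island, 26 of the 66 possible pairs of A with B were listed in ponatinib (39.4%) and 22 in DMSO (33.3%), 13 of them in both. Of the 33 possible pairs of B with C, 17 were listed in ponatinib (51.5%) and 18 in DMSO (54.5%), and 16 were the same pairs. Of the 242 possible pairs of A with C, 14 were listed in ponatinib (5.79%) and 12 in DMSO (4.96%), with 3 in common. The small island B, which lies between the others, was thus in contact with both neighbours. Direct contacts of A with C were a smaller share of the possible pairs and seldom the same pair in both lists. Those pairs lie 1519 to 1876 kb apart, against 848 to 1127 kb for A with B and 659 to 760 kb for B with C. At 1000 to 2000 kb, 0.312% of bait pairs outside the window were listed in ponatinib and 0.288% in DMSO. Within islands, 85 of 231 pairs of A were listed in ponatinib and 76 in DMSO, and 22 of 55 pairs of C in ponatinib and 20 in DMSO.

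**Figure D2:**
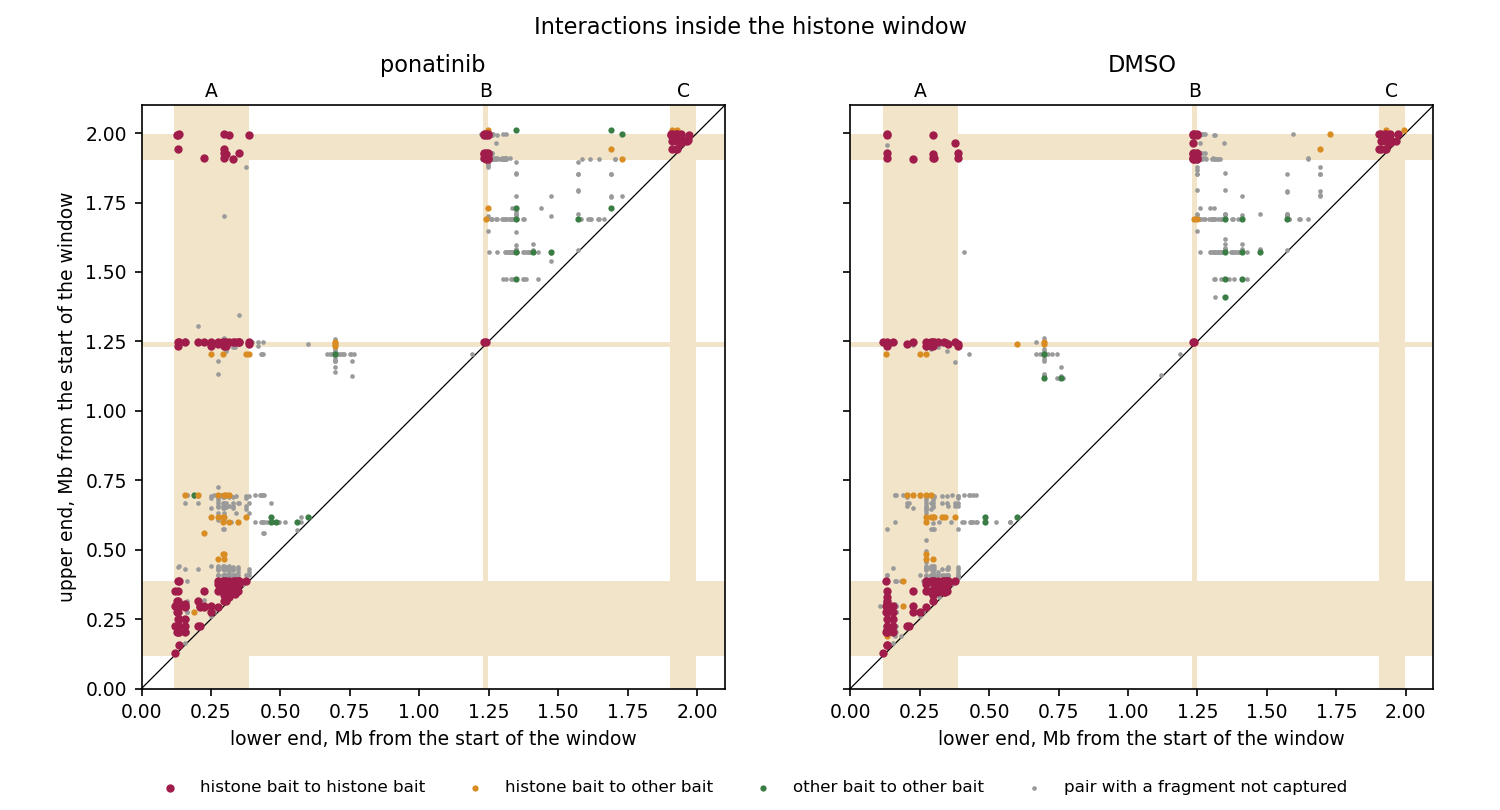
Each point is an interaction with both ends inside the window, placed by the lower end (horizontal axis) and upper end (vertical axis) in Mb from the start of the window, for ponatinib (left) and DMSO (right); shaded bands are histone islands A, B and C and colour gives the kind of pair. Blocks of histone to histone pairs stand where the bands cross: 26 pairs of A with B in ponatinib and 22 in DMSO, and 17 and 18 of B with C.

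Histone genes of one family have similar coding sequences, and the sources used here do not state how reads that match several copies were placed. The share of island-crossing pairs was therefore split by whether the fragments held a histone family in common. With a family in common, 28 of 130 possible pairs between islands were listed in ponatinib (21.5%, 14.8 to 29.6%) and 27 in DMSO (20.8%, 14.2 to 28.8%). With none in common, 29 of 211 were listed in ponatinib (13.7%, 9.40 to 19.1%) and 25 in DMSO (11.8%, 7.82 to 16.99%). The intervals overlap within each list. These possible pairs include the 242 of A with C, which lie much farther apart than the others. Among pairs of A with B or B with C alone, 22 of 43 with a common family (51.2%) and 21 of 56 without (37.5%) were listed in ponatinib. In DMSO 21 of 43 (48.8%) and 19 of 56 (33.9%) were listed, and the intervals overlap in both lists. The part played by similar sequence in these contacts was not tested.

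A single fragment of island B had more contacts with A than either of the others in both lists. The fragment of H2BC12 and H2AC12, a head to head H2B and H2A gene pair, contacted 17 of the 22 fragments of A in ponatinib and 11 in DMSO, 9 of them in both. The fragment of H4C9 contacted 5 in ponatinib and 6 in DMSO, and that of H2BC11, H2AC11 and an end of H2BC12 contacted 4 and 5. Without the H2BC12 and H2AC12 fragment the share of listed pairs between islands was 11.04% in ponatinib and 11.4% in DMSO, against 16.7% and 15.2% with it. Towards C the 3 fragments were alike in number, with 5 to 6 of 11 fragments contacted in ponatinib and 5 to 7 in DMSO.

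On the side of island A the fragment of H3C4 and H2AC7 led. It was the only fragment to contact all 3 fragments of B in both lists. Its pair with H4C9 scored 35.1 in ponatinib and 14.4 in DMSO, its pair with H2BC11/H2AC11/H2BC12 scored 30.3 and 13.3, and its pair with H2BC12/H2AC12 scored 20.3 and 23.2. The neighbouring fragment of H2BC7 and H4C5, which holds the other side of the divided promoter, scored 30.2 in ponatinib and 8.40 in DMSO with H2BC12/H2AC12. Scores are the authors' own values, they were not normalised between the lists, and a difference between lists is not a difference in contact strength. The pair of H4C8 with H4C9 scored 10.67 in ponatinib and 16.04 in DMSO.

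The scores of contacts with C differed between the lists in opposite ways for H4C9 and H2BC12/H2AC12 of island B, which are named with their scores known. For the remaining fragment of B, H2BC11/H2AC11/H2BC12, 2 of the 5 pairs with C found in both lists had the higher score in ponatinib. For H4C9, all 5 pairs with C found in both lists had the lower score in ponatinib: with H3C10/H2AC14 15.8 in ponatinib and 34.1 in DMSO, and with H4C12 21.4 and 32.1. Its pair with H3C12/H2AC17 scored 11.1 in ponatinib and 24.3 in DMSO, and its pair with H2BC17 scored 5.91 and 25.02. For H2BC12/H2AC12, a neighbouring fragment, 5 of the 6 pairs with C had the higher score in ponatinib. Its pair with H3C12/H2AC17 scored 38.8 in ponatinib and 22.1 in DMSO, its pair with H3C10/H2AC14 33.3 and 20.6, and its pair with H2BC17 28.3 and 18.5. The direction did not extend to its contacts with A, where 2 of the 9 pairs in both lists had the higher score in ponatinib. For H4C9 it was 1 of the 2 pairs with A in both lists. Over all 354 interactions of the window found in both lists, 186 had the higher score in ponatinib, so neither direction held for the window as a whole.

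**Figure D3:**
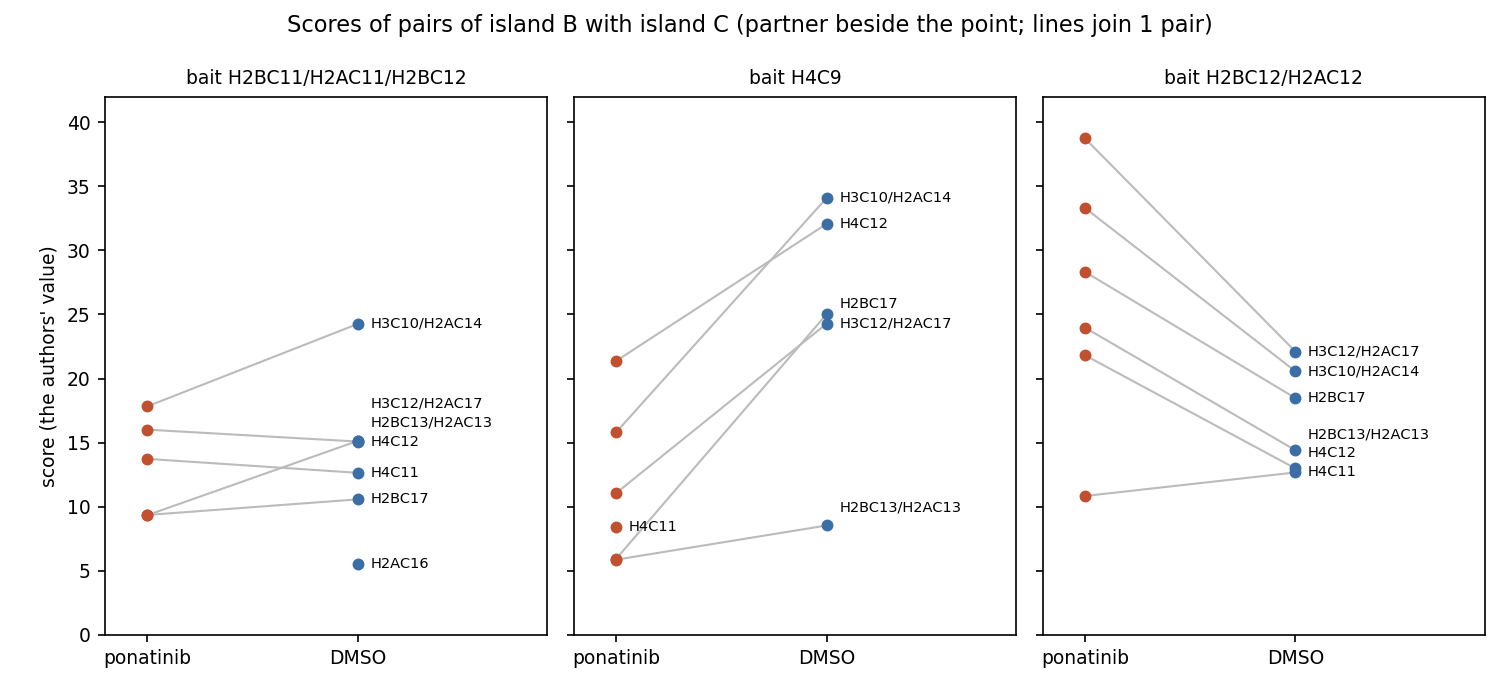
Scores (vertical axis, the authors' value) of the pairs that join each of the 3 island B baits to island C baits, in ponatinib and DMSO; lines join a pair found in both lists, names give the island C partner and are shifted where they would overlap. Scores of H4C9 are lower in ponatinib in 5 of 5 such pairs, those of H2BC12/H2AC12 are higher in 5 of 6, and those of H2BC11/H2AC11/H2BC12 are higher in 2 of 5.

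Contacts of A with C spanned more than 1500 kb. The highest in ponatinib joined H3C4/H2AC7 to H3C10/H2AC14 with a score of 17.2, against 5.62 in DMSO. The others found in both lists were H3C2/H2AC4 with H2BC17, at 10.4 in ponatinib and 5.06 in DMSO, and H3C2 with H3C12/H2AC17, at 7.92 and 6.03. The remaining 11 in ponatinib and 9 in DMSO were in a single list.

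Pairs within island C scored higher than pairs within island A. The pair of H2AC15/H2BC15 with H3C12/H2AC17 had the highest score of the window in both lists, 47.4 in ponatinib and 37.1 in DMSO, over 49.1 kb. Among pairs within C, H4C12 with H2AC15/H2BC15 followed at 34.8 in ponatinib and 35.4 in DMSO. Histone to histone pairs within C had a median score of 13.3 in ponatinib and 12.9 in DMSO, and those within A 7.40 and 6.76. The pairs that join B to C had medians of 15.8 and 15.1. In A the leading pairs were H3C2/H2AC4 with H3C4/H2AC7 in ponatinib, at 22.5 against 18.4 in DMSO, and H1-4/H2BC5 with H2BC5/H2BC6 in DMSO, at 18.2 in ponatinib and 22.4 in DMSO.

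Contacts of histone baits with the DNA between islands were unevenly spread. Histone baits of A had 136 interactions in ponatinib and 130 in DMSO with fragments between A and B. They gathered in 2 places: the 50 kb from 0.4 Mb after the start of the window, just above A, drew 48 contacts in ponatinib and 50 in DMSO, and the 50 kb from 0.65 Mb, where ABT1 lies, drew 46 and 39. From 0.75 to 1.1 Mb, a stretch of 350 kb, histone baits had 0 interactions in either list, and all baits together had 5 in ponatinib and 4 in DMSO. That stretch held 1 bait, of ZNF322, and only 4 fragments named anywhere in the lists. Histone baits of C had 56 interactions in ponatinib and 45 in DMSO with fragments between B and C. From 1.4 to 1.55 Mb, where the zinc finger gene ZNF391 lies, histone baits had 0 in both lists while all baits had 21 in each.

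**Figure D4:**
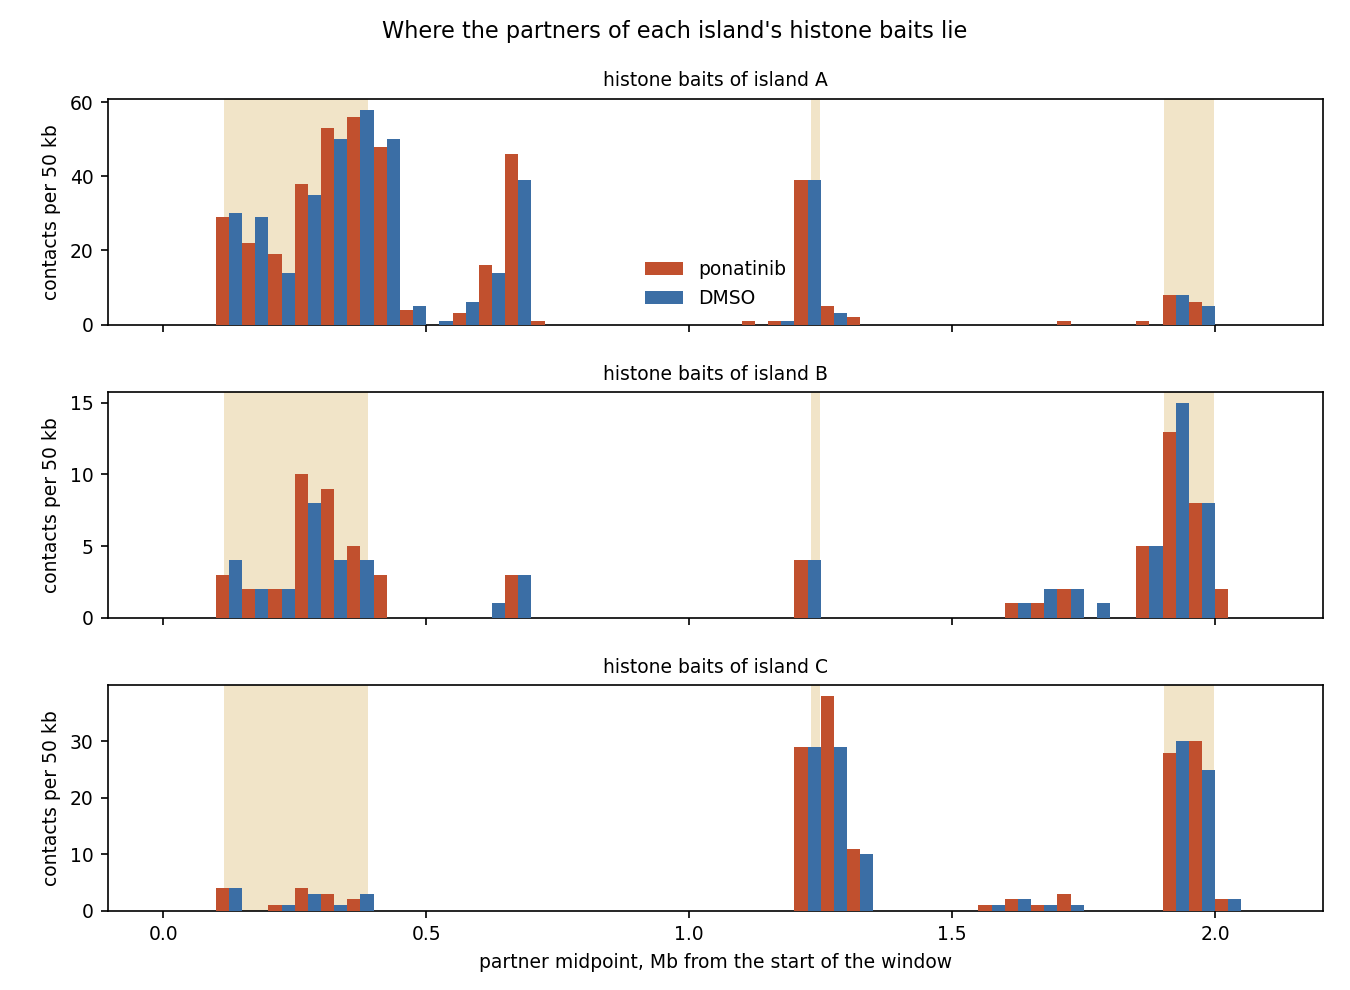
Number of interactions of the histone baits of islands A, B and C (panels from top to bottom) by position of the partner in 50 kb steps (horizontal axis, Mb from the start of the window; vertical axis, contacts), ponatinib in red left of DMSO in blue; shaded bands are the islands, and a pair with both ends in a panel's island counts at both. Partners of A lie in A itself, before 0.75 Mb, around B and around C, with 0 between 0.75 and 1.1 Mb in either list.

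Some of the DNA that histone baits contacted between islands carries tRNA genes. The window has 100 tRNA genes in the RefSeq table. Of the 114 fragments that were not captured and that histone baits contacted, 21 held an end of a tRNA gene in ponatinib (18.4%), and 23 of 114 did in DMSO (20.2%). Counted inside the window only, the share was 19.6% in ponatinib (12.4 to 28.6%) and 20.95% in DMSO (13.6 to 30.0%) for histone baits. For the other baits it was 31.1% in ponatinib (22.3 to 40.9%) and 34.0% in DMSO (24.6 to 44.5%), so tRNA partners were not particular to histone baits. The partner met by most histone baits was the fragment of the tyrosine tRNA gene TRY-GTA1-1, with 10 histone baits in each list. The fragment of the tRNA gene TRX-CAT1-4 met 10 in ponatinib and 8 in DMSO, a fragment just above island A met 8 and 10, and the uncaptured fragment that holds the other end of H4C9 met 8 and 9.

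Histone fragments were rich in interactions. The median over the 36 histone baits was 15.5 in ponatinib and 14.5 in DMSO, against 3 and 3 over all 17883 baits. Histone baits had the higher median in all fragment length classes: among baits of 2 to 4 kb the median was 28 in ponatinib and 22 in DMSO for histone baits and 3 in each list for all baits. The 19 baits of the window without a histone gene also stood above the series, with medians of 9 in ponatinib and 8 in DMSO. The fragment of H3C4 and H2AC7 led with 58 in ponatinib and 52 in DMSO. H2BC12/H2AC12 had 47 and 39, H4C8 33 and 50, and H2BC5/H2BC6 34 and 44. H2BC13/H2AC13 had 38 and 25, H2BC17 28 and 31, and H3C10/H2AC14 27 and 29. At the low end stood H1-5 with 5 in ponatinib and 3 in DMSO and H4C13 with 4 and 2 in island C. Island A had H1-6/H2BC4 with 3 and 5 and H1-1/H3C1/H4C1 with 5 and 3.

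Numbers per histone bait were close between the treatments. Called by a 2-fold rule on log2((ponatinib + 1)/(DMSO + 1)) with at least 5 interactions over both lists, 0 of 36 histone baits had more in ponatinib, which allows a share of up to 8.33% by 3 counts and 9.74% by the exact interval, against 10.5% of the 11362 baits of the series with as many. Fewer were called for 1 of 36 (2.78%), against 7.17% of those 11362. That bait holds H3C7, a gene for histone H3, with 8 interactions in ponatinib and 17 in DMSO, 4 of them shared, exactly at the limit. The shares called were not matched for the number of interactions. Its median was 15.5 in ponatinib and 14.5 in DMSO for histone baits and 3 in each list over all baits. Histone baits also share pairs with each other, so the limits treat as independent what is not, and the shares are not like for like. Of the 36, 21 had a higher number in ponatinib, 11 a lower one and 4 the same, with a median log2 ratio of 0.13. H2BC8/H2AC8 with 24 in ponatinib and 12 in DMSO, and H1-4/H2BC5 with 16 and 8, stayed just short of the limit. The low count of calls depended on the scores kept. At scores of at least 7, 5135 baits of the series had at least 5 interactions. Of those 5135, 11.2% were called with more in ponatinib and 5.39% with fewer. Not all 36 histone baits could be called there, so the shares are not like for like. H4C6, for example, had no score above 6.16 in ponatinib or 6.88 in DMSO. Of the 36 histone baits, 0 were called with fewer and 5 with more in ponatinib. They were H1-2 with 8 in ponatinib and 3 in DMSO, H1-4/H2BC5 with 7 and 3, H2BC8/H2AC8 with 17 and 8, H3C8/H2BC10 with 13 and 5, and H2BC13/H2AC13 with 24 and 11, of which H1-2 and H3C8/H2BC10 are named because of these values.

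**Figure D5:**
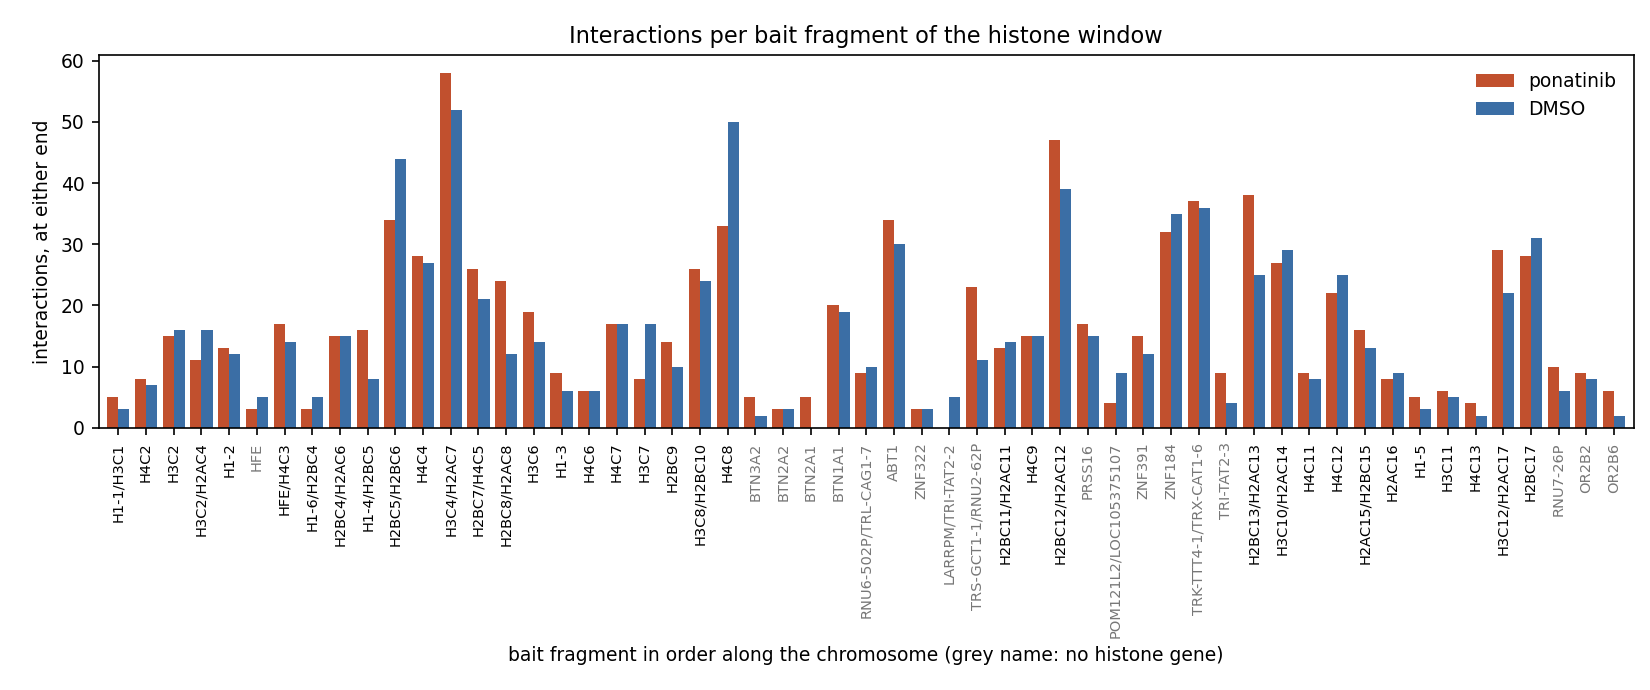
Number of interactions, counted at either end of a pair (vertical axis), of the 55 bait fragments of the window in their order along the chromosome (horizontal axis), ponatinib in red left of DMSO in blue; grey names hold no histone gene, and names are cut after the second gene. The tallest bars are H3C4/H2AC7 with 58 in ponatinib and 52 in DMSO, and H4C8 has 33 and 50.

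H4C8, a gene for histone H4, had the largest difference towards fewer interactions in ponatinib among the baits of the window. It was singled out with its numbers known, so they are a description with no test. It had 33 interactions in ponatinib and 50 in DMSO, 27 of them the same pairs, and 39.8% of the summed number in ponatinib (29.2 to 51.1%), beside 52.1% over the whole lists. At scores of at least 7 it had 18 in ponatinib and 28 in DMSO. Counted only where it is the bait listed first, it had 18 and 41. By that count it was called with fewer, together with H3C7 at 6 and 16, and H2BC8/H2AC8 at 22 and 9 and H4C6 at 5 and 1 were called with more, out of 33 histone baits. Over the series that count called 8.36% of baits with fewer and 12.4% with more.

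The number of histone partners of H4C8 was the same in each list, and the difference lay in fragments that were not captured. It contacted 17 histone baits in ponatinib and 17 in DMSO, 13 of them in both. It contacted 15 uncaptured fragments in ponatinib and 32 in DMSO, 14 in both. By place, 23 partners lay in the first subcluster in ponatinib and 32 in DMSO, 6 and 12 in the rest of the window, and 4 and 5 in the second subcluster. The 23 pairs found in DMSO alone had a median score of 5.90 and none above 8.56, while the 27 shared ones had a median score in DMSO of 9.38. Its highest pairs in ponatinib were with H1-3 at 15.97 and H2BC9 at 15.3, where DMSO had 8.84 and 18.1. Its highest in DMSO was with H3C4/H2AC7 at 20.9, where ponatinib had 11.3.

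By shared partners, H4C8 was most like its neighbour H3C8/H2BC10, with a Jaccard index (common partners over all partners of both) of 0.439 in ponatinib and 0.321 in DMSO. H4C7 followed at 0.316 in ponatinib and 0.264 in DMSO. H3C4/H2AC7 had 0.197 and 0.308, H3C7 0.171 and 0.314, and H2BC12/H2AC12 0.270 and 0.187. The last of these is in island B.

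Taken by family, the 12 H4 genes had 176 interactions in ponatinib and 180 in DMSO, 49.4% of the sum in ponatinib (44.1 to 54.8%). The 11 H2A genes had 262 and 221 (54.2%, 49.7 to 58.8%), the 12 H2B genes with a bait 275 and 237 (53.7%, 49.3 to 58.1%), and the 9 H3 genes with a bait 192 and 185 (50.9%, 45.8 to 56.1%). The 6 H1 genes had 66 and 49 (57.4%, 47.8 to 66.6%). Each interval holds the 52.1% of the whole lists, and families share fragments, so their sums overlap.

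The other genes of the window had contacts of their own. ABT1, a gene for an activator of basal transcription, had 34 interactions in ponatinib and 30 in DMSO, 16 of them shared, and reached histone baits of A and B. Its pair with a fragment 254 kb below it, near the tRNA genes after island A, scored 12.4 in ponatinib and 14.6 in DMSO. ZNF184, a zinc finger gene between B and C, had 32 and 35, with 23 shared. Its leading partners were fragments of the tRNA genes TRS-CGA2-1, at 13.9 in ponatinib and 18.5 in DMSO, and TRR-ACG2-2, at 14.3 and 7.96. The bait of the tRNA genes TRK-TTT4-1 and TRX-CAT1-6 had 37 and 36, with 25 shared, and met the same TRS-CGA2-1 and TRR-ACG2-2 fragments as well as H4C9, with which it scored 11.5 in ponatinib and 5.01 in DMSO. PRSS16, a thymic serine protease gene, joined ZNF184 at 11.5 in ponatinib and 14.2 in DMSO and ZNF391 at 11.2 and 10.2. Neither ZNF184 nor PRSS16 nor ZNF391 contacted a histone bait in either list.

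Of the 19 baits without a histone gene, 5 were called with more interactions in ponatinib (26.3%, background 10.5%) and 2 with fewer (10.5%, background 7.17%). Of these 7, POM121L2, BTN3A2, TRS-GCT1-1 and TRI-TAT2-3 stand exactly at 2-fold. The calls with more depended on the setting. There were 5 with a pseudocount of 0.5 and 4 by the bait listed first. There were 0 at scores of at least 7, 1 at scores of at least 10, and 2 with lists of equal length or after scaling by list length. BTN2A1, a butyrophilin gene, had 5 in ponatinib and 0 in DMSO, BTN3A2 had 5 and 2, and the odorant receptor gene OR2B6 had 6 and 2. The bait of TRS-GCT1-1 and RNU2-62P, just below island B, had 23 in ponatinib and 11 in DMSO, and that of TRI-TAT2-3 had 9 and 4. Fewer were listed for POM121L2, with 4 in ponatinib and 9 in DMSO, and for LARRPM/TRI-TAT2-2, with 0 and 5. BTN1A1 had 20 and 19, and HFE, the iron-regulating gene inside island A, had 3 and 5 on the fragment it shares with no histone gene.

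Beyond the upper end of the window the partners lay in a zinc finger gene cluster. There were 40 such interactions in ponatinib and 26 in DMSO, 13 of them shared, and 60.6% of the sum was in ponatinib (47.8 to 72.4%), an interval that holds the 52.1% of the whole lists. This direction turned with the score: at scores of at least 10 there was 1 in ponatinib and 5 in DMSO. Over all interactions with chromosome 6 outside the window the ponatinib share was 59.2%, against 34.8% at scores of at least 7 and 16.7% at scores of at least 10. The fragment of ZSCAN31 and ZKSCAN3 had 7 in ponatinib and 6 in DMSO, 5 in common, from histone baits of C, the odorant receptor baits and RNU7-26P. ZNF165 had 5 and 4 and ZKSCAN8 had 4 and 2. The pair of OR2B6 with ZSCAN31/ZKSCAN3 scored 5.38 in ponatinib and 19.8 in DMSO, and that of H2AC15/H2BC15 with it scored 9.45 and 14.01. Before the lower end there were 2 in ponatinib and 3 in DMSO, none shared.

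Contacts with other chromosomes were rare. They made up 10 of 686 interactions in ponatinib (1.46%) and 8 of 638 in DMSO (1.25%), against 7.31% and 7.42% in the rest of the lists, a difference of -5.86 percentage points in ponatinib (-6.54 to -4.64) and -6.16 in DMSO (-6.81 to -4.95). Pairs across chromosome junctions such as BCR-ABL1 were not taken out of the rest. The highest score there was 1874 in ponatinib and 1682.28 in DMSO, against 707.79 and 505.61 among its pairs on 1 chromosome. Their part in the difference was not tested. Of the window's contacts with other chromosomes, none was in both lists and none of the partners was a bait. None held a histone gene (0 of 10 in ponatinib, which allows up to 30%, and 0 of 8 in DMSO, up to 37.5%), although 16 of 22 histone genes listed from other chromosomes had a bait. The highest score, 16.6, joined the TRS-GCT1-1 bait to chromosome 5 in ponatinib, and in DMSO 8.56 joined H4C8 to another fragment of chromosome 5. In ponatinib the baits were TRS-GCT1-1 and H1-5 with 2 each and H2BC13/H2AC13, H3C6, H2BC17, H4C7, H4C6 and H4C12 with 1 each. In DMSO they were H3C8/H2BC10, H3C6, OR2B2, H1-2, H2BC12/H2AC12, H3C2/H2AC4, H4C8 and H3C4/H2AC7, with 1 each. A further 1 in each list led to an alternate contig of chromosome 6.

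As a whole the window differed little in number between treatments. Ponatinib held 51.8% of the summed interactions of the window (49.1 to 54.5%), beside 52.1% of the whole lists. Within the first subcluster there were 132 in ponatinib and 142 in DMSO, within the second 234 and 223, and between them 67 and 57. Pairs with histone baits at both ends were 85 and 76 of these in the first, 41 and 40 in the second and 40 and 34 between them. In the second, 89 in ponatinib and 88 in DMSO joined a bait without a histone gene to an uncaptured fragment. From a subcluster to the rest of the window there were 164 and 144, and inside the rest 36 and 34. Every one of these classes had an interval of its ponatinib share that holds 52.1%.

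The lists had more of the window in common than of the rest of the genome. In the window 354 pairs were in both lists, 51.6% of the ponatinib ones (47.8 to 55.4%) and 55.5% of the DMSO ones (51.5 to 59.4%), against 40.7% and 44.2% in the rest. The excess was uneven over distance. At 500 to 1000 kb, 44.1% of the window's ponatinib interactions and 54.3% of its DMSO interactions were shared, against 24.7% and 28.4% in the rest. The difference there was 19.4 percentage points of the ponatinib list (Newcombe interval 12.1 to 26.9) and 25.9 of the DMSO list (17.6 to 34.1), the largest among the distances. At 50 to 100 kb it was 11.8 in ponatinib (1.62 to 20.7) and 11.3 in DMSO (1.07 to 20.2), and at 100 to 200 kb 14.7 (5.24 to 23.2) and 9.90 (0.504 to 18.5). At 0 to 50, 200 to 500 and 1000 to 2000 kb it lay between 1.09 and 8.14 points, with intervals that hold 0 in both lists. Among pairs with a bait at both ends, 59.2% of the window's in ponatinib and 68.2% in DMSO were shared, against 52.0% and 55.2% in the rest. Histone to histone pairs were shared most, 66.3% of those in ponatinib and 73.3% of those in DMSO, and inside the second subcluster 87.8% and 90%. Interactions between the subclusters were shared less, 32.8% and 38.6%, over median distances of 965 kb in ponatinib and 955 kb in DMSO. The rest of the lists shared 24.7% and 28.4% at 500 to 1000 kb, and 18.5% and 22.8% at 1000 to 2000 kb.

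Window interactions also had more baits at both ends, 36.4% in ponatinib and 34.0% in DMSO, against 18.5% and 18.98% in the rest. A score of at least 10 was reached by 20.3% in ponatinib and 19.3% in DMSO, against 16.3% and 14.9% in the rest. Shared interactions of the window had a median score of 8.09 in ponatinib and 7.96 in DMSO, and those in a single list 6.28 and 6.08. Across the 354 shared pairs the scores of the lists had a Spearman correlation of 0.53, given as a description, since pairs share fragments and libraries. It was 0.57 in the rest of the lists, 0.63 among the 89 pairs of the first subcluster, 0.57 among the 138 of the second and 0.30 among the 22 between them.

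Genes that make or handle histone mRNA and protein lie elsewhere in the genome, and 23 of the 27 listed had a bait. Of the 15 with at least 5 interactions, 3 were called with more in ponatinib (background 9.92% of 9787 genes) and 2 with fewer (background 6.26%), with a median log2 ratio of 0, beside 0.08 over all those genes. NPAT, the organiser of the histone locus body, had 54 in ponatinib and 39 in DMSO on a fragment it shares with ATM, and HINFP had 11 and 8. NASP, a chaperone of H3 and H4, had 12 and 1. SLBP, which binds the stem-loop of histone mRNA, had 9 and 4, and ZNF473, a zinc finger protein of histone mRNA 3′ end processing, had 5 and 2. LSM10, a subunit of the U7 particle that guides this processing, had 2 in ponatinib and 7 in DMSO, and CPSF2, a subunit of the cleavage machinery, had 2 and 5. SLBP and ZNF473 had no count where the fragment had to hold the promoter start.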

How the data were processed

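Promoter-capture Hi-C was measured in 1 ponatinib and 1 DMSO library. The authors deposited 1 list of fragment pairs per library with a score for each pair, their own value and never below 5. Coordinates are hg38, as the submitters' processing notes name it. No label or header names the aligner or the caller, or gives the depth or the meaning of the score.

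Members, gene lists and comparisons were chosen with earlier results of these data known. Pairs were made unordered, and identical pairs counted as shared. Fragments were placed by midpoint, and genes by either end in RefSeq GRCh38.p14. Numbers per fragment count a pair at either end, because a pair of 2 baits is listed once and in an arbitrary order; counting only the bait listed first had been planned as the main count and became the alternative. Of the pairs of 2 baits found in both lists, 93.4% had the same order.

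Intervals are 95% intervals, exact binomial or Newcombe's. Islands are runs of histone baits with gaps under 500 kb. Alternatives were scores of at least 7 or 10, equal list lengths, wider matching and others given in the closing section. Named genes came from gene lists, the 10 baits with most interactions, the 5 largest gains and losses, the 5 highest scores of each class, contacts with other chromosomes, and likeness to H4C8. Functions were tested on simulated data. Python 3.11.15, pandas 2.3.3 and scipy 1.17.1 were used.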

Additional observations from a re-analysis of the deposited data

How the results depend on the processing

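With 1 library per treatment nothing could be repeated, and depth is unknown, so no interval covers the spread between libraries. No paired analysis was possible because the labels give 1 sample per group and no test was made. The ponatinib share of the numbers changed side of an even split in 3 classes at scores of at least 7, all with intervals that hold 50%: 34.8%, against 59.2% with all scores, for chromosome 6 outside the window (16.7% at scores of at least 10), 54.9%, against 48.2%, within the first subcluster, and 45.8%, against 53.2%, for a subcluster with the rest. Of 22 values, 21 kept their place with lists of equal length, as did all 7 of each change of the window rule, all 8 with wider histone baits, all 8 with baits in both lists, and all 5 with a pseudocount of 0.5. At scores of at least 7, 12 of 22 values moved, and at scores of at least 10, 14 of 24 moved.

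Levels moved with the score. The ratio of listed histone pairs to bait pairs outside the window at 500 to 1000 kb was 37.1 in ponatinib and 38.7 in DMSO at scores of at least 7, and 72.5 and 102.3 at scores of at least 10, where 28% and 32% of possible pairs were listed. At 1000 to 2000 kb the ratio was 39.1 in ponatinib and 24.8 in DMSO at scores of at least 7, with 5.26% and 3.01% of possible pairs listed, the DMSO ratio being that with all scores, and 43.9 in ponatinib and 41.5 in DMSO at scores of at least 10, with 2.26% and 1.504% listed. Between islands, alternatives chosen after seeing the data gave 11.04% and 11.4% without the fragment of H2BC12 and H2AC12, and 7.92% and 8.21% at scores of at least 10. Matching both ends within 5 kb made 70.6% of ponatinib and 75.1% of DMSO interactions shared, and within 10 kb 81.2% and 84.6%, since wider matching accepts more pairs.

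The calls moved with the settings. Of the histone baits, 5 were called with more and 0 with fewer at scores of at least 7, and 2 with more and 2 with fewer by the bait listed first. Of the other baits, 0 were called with more and 0 with fewer at scores of at least 7, and 1 with more and 0 with fewer at scores of at least 10. With lists of equal length 2 were called with more, as were 2 after scaling by list length. With at least 10 interactions 2 were called with more and 1 with fewer, and by the bait listed first 4 with more and 0 with fewer. With the promoter start required, 1 factor gene was called with more.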
